A study of Mus musculus with 8 samples.

Results

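Small nucleolar RNAs (snoRNAs) and the related small Cajal body RNAs (scaRNAs) were followed through an anti-Flag RNA immunoprecipitation (RIP) of the translation initiation factor eIF4A2. The members, chosen by their counts in the input libraries, are the genes of type snoRNA or scaRNA in GENCODE vM21 with at least 20 counts summed over the 4 input libraries. There are 83 such members of 1558 annotated genes of these types in the table, and 188 of the 1558 had any read. By name, 10 are Snord genes (C/D box), 16 are Snora genes (H/ACA box), 5 are Scarna genes and 52 have other names, mostly numbered gene models. By gene type, 72 are snoRNA and 11 are scaRNA genes.

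The libraries come from mouse embryonic stem cells (ESCs) in which Eif4a2, a helicase gene of translation initiation, was knocked out. All cells grew in serum with LIF and the inhibitors CHIR99021 and PD0325901 (2i), which keep ESCs naive. The EV groups carried an empty vector and so no Flag-tagged protein, and the groups labelled Eif4a2flag re-expressed Flag-tagged eIF4A2, called eIF4A2FL here after the study's name for the full-length protein. Both cell lines gave an input and a RIP with 5 µg of anti-Flag antibody over 3 h. The 4 groups hold 2 libraries apiece and are called input EV, input eIF4A2FL, RIP EV and RIP eIF4A2FL. The re-expressed gene sits on a transposon vector, and the study counts clones as biological replicates for the rescued isoforms. Nothing says how the EV replicates were made, so p-values may measure technical spread there. In 1 field of its labels, RIP eIF4A2FL replicate 2 is assigned to Eif4a3, while its other fields say Eif4a2.

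snoRNAs are short nuclear RNAs, most of them cut from the introns of host genes, that stay in the nucleolus and guide the modification of ribosomal RNA. C/D box snoRNAs bind fibrillarin and guide ribose methylation, whereas H/ACA box snoRNAs bind dyskerin and guide pseudouridylation, and scaRNAs do the same for spliceosomal RNAs in Cajal bodies. A few, such as U3, U8, U13 and U17, serve the cleavage or maturation of precursor ribosomal RNA instead. Mature snoRNAs have no long poly(A) tail, while the libraries were primed with oligo(dT), so counts follow what the priming picked up and cannot rank the RNAs by abundance.

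The box elements of the members are shown first, on those with the most input counts among members named for each box type. Snord13 was passed over, and some others were chosen after their values were seen. Sequences were read from GRCm38 (mm10) and are given 5′ to 3′ as DNA. Capitals mark the C box TGATGA within the first 25 bases and the D box CTGA within the last 15, or ACA starting 4 to 9 bases before the 3′ end. Shown are Snora73b (chr4:132352322-132352526, minus strand), the U17 RNA in an intron of Rcc1, Snora30 (chr7:127527874-127528003, plus strand), and Gm26397 (chr8:126944847-126944980, minus strand), in an intron of Tomm20.

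Snora73b: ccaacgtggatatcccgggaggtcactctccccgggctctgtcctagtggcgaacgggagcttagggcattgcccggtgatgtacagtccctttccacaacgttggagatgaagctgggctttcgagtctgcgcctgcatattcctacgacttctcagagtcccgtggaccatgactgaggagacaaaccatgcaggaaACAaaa
Snora30: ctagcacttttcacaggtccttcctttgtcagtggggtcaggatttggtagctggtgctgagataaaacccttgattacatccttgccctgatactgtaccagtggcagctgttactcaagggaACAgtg
Gm26397: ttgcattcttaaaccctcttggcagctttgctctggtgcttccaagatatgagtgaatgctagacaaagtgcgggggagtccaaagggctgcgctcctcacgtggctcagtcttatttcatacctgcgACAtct

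The C/D box names are shown by Snord104 (chr11:106500993-106501062, plus strand), which lies in no gene, and Snord49b (chr11:62603079-62603150, plus strand), in an intron of 2410006H16Rik. Snord13, the Snord member with the most input counts, did not hold both boxes by this search and is not shown. Scarna9 (chr9:15326264-15326333, minus strand) lies in an intron of Cep295.

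Snord104: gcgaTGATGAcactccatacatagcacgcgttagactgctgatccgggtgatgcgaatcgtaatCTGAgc
Snord49b: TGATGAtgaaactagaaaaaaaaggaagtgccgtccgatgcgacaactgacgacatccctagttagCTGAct
Scarna9: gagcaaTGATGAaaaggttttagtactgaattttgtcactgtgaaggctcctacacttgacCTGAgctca

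Gm26448 (chr9:120129351-120129553, plus strand), in an intron of Rpsa, is shown because it is 87.8% identical to Snora73b. Rnu3b1 (chr11:87443237-87443452, plus strand) is shown because its U3 sequence is also that of Rnu3b2, Rnu3b3 and Rnu3b4. Reads that lie wholly within this sequence cannot be assigned between these genes. Gm24616 (chr16:23111617-23111755, plus strand) is shown because it overlaps an exon of Eif4a2, the gene that was knocked out and re-expressed.

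Gm26448: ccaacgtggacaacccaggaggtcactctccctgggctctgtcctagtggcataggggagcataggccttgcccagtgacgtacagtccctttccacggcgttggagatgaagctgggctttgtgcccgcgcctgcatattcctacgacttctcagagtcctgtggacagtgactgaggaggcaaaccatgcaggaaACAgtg
Rnu3b1: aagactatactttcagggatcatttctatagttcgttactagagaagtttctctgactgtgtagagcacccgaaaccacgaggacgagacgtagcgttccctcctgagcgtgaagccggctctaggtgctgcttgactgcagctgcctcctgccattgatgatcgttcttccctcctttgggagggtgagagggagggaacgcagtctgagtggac
Gm24616: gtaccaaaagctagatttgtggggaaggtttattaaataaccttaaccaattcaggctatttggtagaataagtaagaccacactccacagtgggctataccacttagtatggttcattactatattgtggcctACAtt

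ACA near the 3′ end was in 61 of the 83 members (73.5%), against 44.4% of the 1475 annotated genes under the input minimum. It was in all 16 Snora members and in 42 of the 52 members with other names by this grouping. C and D boxes together were in 12 of the 83 members (14.5%), and 5 of the 10 Snord members held both. Regions of the same length lying 600 bases upstream of all 1558 genes held ACA in 8.54% and both C and D boxes in 0%, and the reverse strand of the genes held them in 13.2% and 0%. The median length of the members was 134 bases, with a range of 65 to 414. The members made up 38.1% of the annotated Snora names, 10.2% of the Snord names and 3.69% of the other names. A run of at least 6 A, which oligo(dT) could prime on, was in the gene or the 30 bases after it for 11 members (13.3%), against 25.8% of the genes under the minimum.

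Of the members, 63 lay in an intron of a gene on the same strand, 8 overlapped an exon of such a gene and 12 lay in no gene. Ribosomal protein genes hosted 15 members. There were 64 different hosts. Among 81 members compared, 14 pairs were at least 80% identical, which touched 22 members. The closest were Snora73b with Snora73a (96.6% identity) and Snora57 with Gm26132 (95.9%), so reads on these could be split or dropped by the counting. Just inside the input minimum, Snora73a and Gm26132 had 20 input counts each, and just outside it Gm25777 and Rnu3b3 had 19 each.

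The libraries held between 2044853 (RIP EV replicate 1) and 11206420 (RIP eIF4A2FL replicate 1) reads on genes. The RIP EV libraries stood apart. Of the 12831 genes with at least 20 input counts, RIP EV replicates 1 and 2 had a read on 49.4% and 67.6%. Eif4a2 itself, the check of the labels, lay at 53.8 to 94.2 CPM (read count scaled to the library's gene reads) in the inputs with the groups overlapping, so its count does not separate knockout from rescue. The 9 ESC markers examined all passed the filter on low counts (CPM of at least 1 in all inputs), while 11 of the 12 markers of other cells did not.

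Reads on members were scarce in RIP eIF4A2FL. The members took 0.0859% and 0.155% of gene reads in input EV, 0.0938% and 0.111% in input eIF4A2FL, 0.117% and 0.114% in RIP EV, and 0.00610% and 0.00577% in RIP eIF4A2FL. Both RIP eIF4A2FL libraries were below all 6 others. The mean share, 0.00594% ± 0.000234 (SD, n = 2), was 17.3-fold lower than in input eIF4A2FL and 19.4-fold lower than in RIP EV. Over pairs of libraries, these folds ranged from 15.4 to 19.3 and from 18.7 to 20.2. With 2 libraries against 2, an exact test could not pass a threshold, so these ratios are given without one. On the total of all reads in the table, which counts unassigned reads too, the RIP eIF4A2FL share was 0.0895 of that in input eIF4A2FL and 0.141 of that in RIP EV, in place of 0.0579 and 0.0515. These are shares of reads in bulk samples, so they give neither an amount of RNA nor a level per cell.

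**Figure D1:**
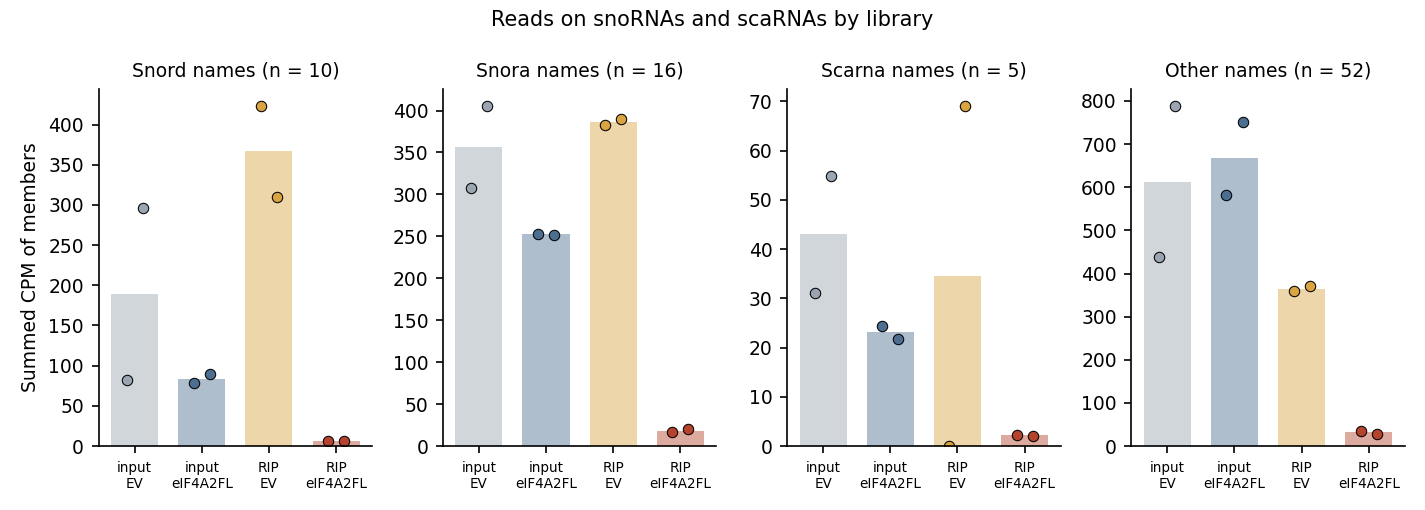
Summed CPM of the members (vertical axis, linear) in each of the 4 groups (horizontal axis), 1 panel per name class. Points are libraries and bars are means of 2 libraries; in every panel the RIP eIF4A2FL bar is the lowest, and the Scarna panel has a RIP EV library at 0.

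Every name class was low in RIP eIF4A2FL. Summed over Snord members, the level in CPM was 82.5 and 296 for input EV, 78.1 and 89.5 for input eIF4A2FL, 423 and 310 for RIP EV, and 6.34 and 6.92 for RIP eIF4A2FL. Summed over Snora members, RIP eIF4A2FL was at 18.5 ± 2.05 CPM (SD, n = 2), input eIF4A2FL at 252 ± 1.06 CPM (SD, n = 2) and RIP EV at 386 ± 4.67 CPM (SD, n = 2). The fold below input eIF4A2FL was 12.6 for Snord, 13.6 for Snora, 10.7 for Scarna and 20.8 for other names. Against RIP EV it was 55.3 for Snord, 20.9 for Snora and 11.4 for other names. These sums do not give the direction of most members. Over pooled reads, 9 of 10 Snord, 9 of 16 Snora, 1 of 5 Scarna and 16 of 52 other members were lower than in RIP EV. In the same order, 0, 4, 4 and 26 were higher. Among all 12831 genes with at least 20 input counts, 3873 were lower and 8872 higher. The Scarna members gave no reads in RIP EV replicate 1 and 69.1 CPM in replicate 2, all of it on Scarna9.

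The RIP EV libraries had a share of reads on members within the range of the inputs, but on far fewer members. A read was found for 17 members in RIP EV replicate 1 and for 32 in replicate 2, against 78 to 83 in the inputs. Libraries of like depth differed in this, as input EV replicate 2, with 3204369 gene reads, had 82 members with a read and RIP EV replicate 2, with 3345151, had 32. Members with a read had a median of 114 and 72.5 reads in RIP EV, and 13.5 to 20 reads in the inputs. RIP eIF4A2FL was the reverse, with 58 and 46 members detected at medians of 5 and 6 reads. In RIP EV, 12 members had a read in both libraries, 25 in 1 library and 46 in neither. Annotated snoRNA and scaRNA genes under the input minimum also carried 331 and 90.3 CPM in RIP EV against 14.4 to 68.3 CPM in the inputs.

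**Figure D2:**
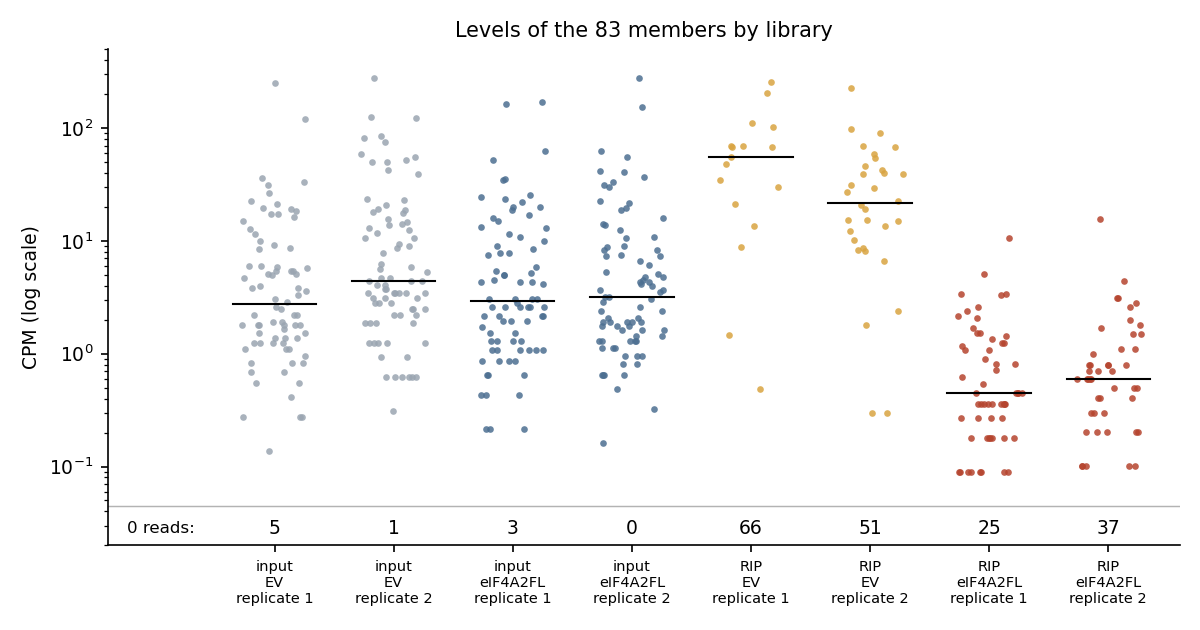
CPM of each of the 83 members (vertical axis, log scale) in each of the 8 libraries (horizontal axis). Points are members with a read, black lines their medians, and the numbers at the bottom count the members with 0 reads; these are 66 and 51 in RIP EV, where the members that were seen lie high, and 25 and 37 in RIP eIF4A2FL, where they lie low.

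Whether eIF4A2FL RIP held more or less of each member than the EV background was tested between the RIP groups, which did not enter the choice of members. One edgeR quasi-likelihood fit covered the 8 libraries and all 10754 genes past the filter, with Benjamini-Hochberg adjustment and a threshold of 0.05. Of the 50 members past the filter, 12 were lower in RIP eIF4A2FL, against a background of 5.46% of all genes, and 2 were higher, against 24.8%. The members' fitted median log2 fold change was -3.01, and that of all genes 0.64. With members at 0 set to a floor of 3 counts over a group, the median of these 50 was -3.54. Over all 83 members it was -1.97, which is the ratio of the groups' floors. That value belongs to members without a read in any RIP library, so it gives library depth and no change in level. Over pooled reads, 35 of the 83 members were lower and 34 higher. Of the 12831 genes with at least 20 input counts, 3873 were lower and 8872 higher. Without RIP EV replicate 2, RIP EV rests on the library with 66 undetected members. The members' fitted median was then 3.43. DESeq2 called 22 members lower and 2 higher, against 10.5% and 30.4% of all genes. edgeR fitted to the 4 RIP libraries alone called 0 members and 0 of all genes (0.0%).

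Counted over all 83 members with no fit, both RIP eIF4A2FL libraries lay below both RIP EV libraries for 11 members, against 10.6% of the 12831 genes with at least 20 input counts. They lay above both for 17 members, against 54.4%. The remaining 55 members overlapped or tied, and 14 of them had no read in any RIP library. Only the 12 members with a read in both RIP EV libraries could be of the first kind, and 11 of them were. The 17 members of the second kind had 0 to 6 reads in RIP EV in all.

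**Figure D3:**
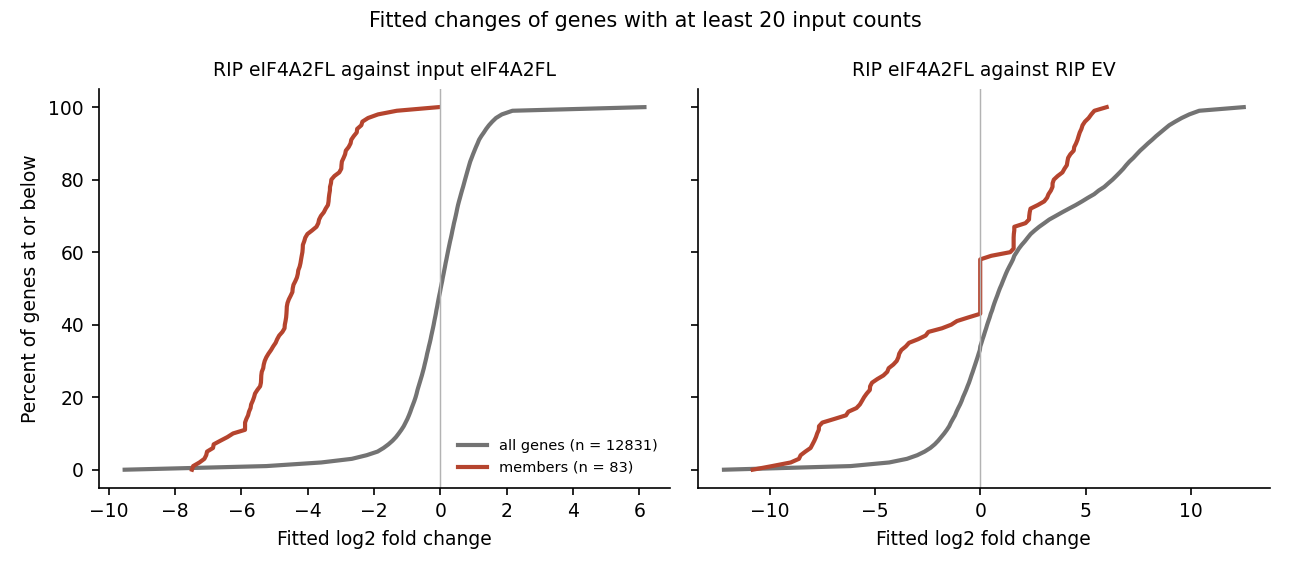
Percent of genes (vertical axis) at or below each fitted log2 fold change (horizontal axis), for RIP eIF4A2FL against its input and against RIP EV. The red curve of the 83 members lies to the left of the grey curve of 12831 genes against input, and against RIP EV it reaches down to -10.80 and up above 0, with a step at 0 from members without a read in either group.

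Among the H/ACA RNAs, Snora73b (U17), which serves precursor rRNA cleavage, was at 257 and 225 CPM in the RIP EV libraries, but at 10.5 and 15.7 CPM in those of RIP eIF4A2FL. Its inputs were at 250 and 281 CPM (EV) and 163 and 155 CPM (eIF4A2FL). RIP EV was thus within the range of the inputs and RIP eIF4A2FL below every other library, without overlap. The log2 fold change between the RIPs was -4.48 ± 0.367 (SE, n = 2 per group; adjusted p = 0.00662 in the edgeR quasi-likelihood test, Benjamini-Hochberg adjusted). An exon of Gm17300 runs antisense to Snora73b, and without a stated strand setting their reads cannot be told apart.

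Gm26448, the U17 relative in Rpsa, was at 67.5 and 19.1 CPM in RIP EV against 0.268 and 0 CPM in RIP eIF4A2FL. It was above all inputs (1.28 to 14.7 CPM) in RIP EV and below all of them in RIP eIF4A2FL. With 3 reads against 202, the ratio was 265-fold lower (95% exact counting interval 89.3 to 1294). Snora17 was at 112 and 58.9 CPM in RIP EV against 0.535 and 0.601 CPM in RIP eIF4A2FL, with inputs between 5.36 and 18.6 CPM. Its log2 fold change between the RIPs was -7.46 ± 0.923 (SE, n = 2 per group; adjusted p = 0.00662, the same edgeR test). Snora31, in an intron of Tpt1, was called on RIP EV replicate 2 alone, with 0 and 40.1 CPM against 0.178 and 0 CPM, and its groups overlap (log2 fold change -7.71, adjusted p = 0.0465, the same edgeR test).

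Gm26397 was at 21.0 and 39.5 CPM in RIP EV, 3.30 and 1.50 CPM in RIP eIF4A2FL, and 171 and 281 CPM in input eIF4A2FL. Both RIPs lay below all inputs, and RIP eIF4A2FL lay lower, with a log2 fold change of -3.92 ± 0.583 (SE, n = 2 per group; adjusted p = 0.00662, the same edgeR test). Gm23639, on chromosome 18 in an intron of Epb41l4aos, was at 103 and 67.6 CPM in RIP EV against 2.14 and 3.11 CPM in RIP eIF4A2FL. The scaRNA gene model Gm24289, in an intron of Tipin, was at 67.5 and 8.07 CPM in RIP EV against 1.25 and 0.601 CPM in RIP eIF4A2FL. Neither of these last 2 overlapped between the RIPs, and both were called lower (log2 fold changes of -5.29 and -5.62).

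Of the 10 Snord members, none was higher in RIP eIF4A2FL than in RIP EV over both libraries, 9 were lower and 1, Snord42a, had no read in either. Snord49b was at 30.3 and 91.2 CPM in RIP EV against 0.357 and 0.301 CPM in RIP eIF4A2FL, with inputs between 6.10 and 39.0 CPM. Its log2 fold change was -7.70 ± 1.20 (SE, n = 2 per group; adjusted p = 0.00662, the same edgeR test). Snord35a, in an intron of the ribosomal protein gene Rpl13a, was at 69.0 and 20.9 CPM in RIP EV against 0.0892 and 0.301 CPM in RIP eIF4A2FL. It was above all inputs (1.65 to 4.82 CPM) in RIP EV and below all of them in RIP eIF4A2FL, with a log2 fold change of -7.99 between the RIPs. Snord104 was the steadiest of them, at 48.4 and 42.2 CPM in RIP EV against 3.39 and 4.41 CPM in RIP eIF4A2FL, a log2 fold change of -3.81 ± 0.712 (SE, n = 2 per group; adjusted p = 0.00860, the same edgeR test).

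Other Snord members rested on 1 RIP EV library. Snord13 (U13), which takes part in maturation of the small subunit rRNA, was at 205 and 0 CPM in RIP EV against 2.41 and 1.80 CPM in RIP eIF4A2FL. Snord118 (U8), which serves maturation of the large subunit rRNAs, was at 69.4 and 0 CPM against 0 and 0. Snord83b, in Rpl3, was at 0 and 98.4 CPM against 0.0892 and 0 CPM. Their groups overlap or tie, and none passed the test in the fit with the lower input minimum of 20 counts. Snord65, which shares its host with Snord49b, had 0.489 and 27.2 CPM against 0 and 0.100 CPM and was called lower (log2 fold change -7.87). Without RIP EV replicate 2 its change was -3.07, and it passed the threshold under 7 of 15 alternatives.

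The 2 members called higher were gene models that overlap exons of protein-coding hosts. Gm23547, which overlaps an exon of Phb2, had 0 reads in both RIP EV libraries and 1.43 and 1.50 CPM in RIP eIF4A2FL, at least 2.63-fold higher against a floor of 3 counts over the group. Gm24451, which overlaps an exon of the C/D box core protein gene Nop56, had 0 and 0.299 CPM in RIP EV against 2.59 and 2.00 CPM in RIP eIF4A2FL. With 1 read against 49, the ratio was 12.5-fold higher (95% exact counting interval 2.14 to 502). Both were nonetheless lower in RIP eIF4A2FL than in every input, where Gm23547 was at 15.1 to 50.6 CPM and Gm24451 at 12.5 to 23.7 CPM. Gm23547 passed the threshold under 5 and Gm24451 under 6 of 15 alternatives.

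Several well-counted members were not seen in RIP EV at all. Snora30 and Snora21 had 0 reads in both RIP EV libraries, although their inputs were at 6.05 to 22.8 CPM and 5.09 to 23.1 CPM. In RIP eIF4A2FL, Snora30 was at 0.178 and 0.200 CPM and Snora21 at 1.34 and 0.401 CPM. Scarna13 and Scarna8 also had 0 reads in RIP EV, and were at 1.07 and 0.702 CPM and at 0.803 and 0.501 CPM in RIP eIF4A2FL. A count of 0 over both RIP EV libraries allows a level of up to 0.557 CPM, so Snora30 could not be ranked between the RIPs at this depth. For Snora21 and Scarna13 the level in RIP eIF4A2FL was at least 1.61-fold higher than this floor.

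The comparisons with input share the RIP libraries of the test above, so they are not independent of it. The inputs chose the members, so levels against input are a description, and the calls given with them are the output of the fit over all genes and no test of the members. Over both libraries pooled, 82 of the 83 members were lower in RIP eIF4A2FL than in input eIF4A2FL, and the fitted change was below 0 for 83 of 83. The exception in the pooled levels was Gm22488, with 13 reads against 6. It was at 0.445 and 0.802 CPM in RIP eIF4A2FL and 0.216 and 0.803 CPM in input eIF4A2FL. Among the 12831 genes with at least 20 input counts, 4645 were lower over pooled reads and 8184 higher. Both RIP libraries lay below both inputs for 77 members, against 19.0% of all genes with at least 20 input counts, and above both for 0, against 42.7%. The median ratio, with members at 0 set to the floor of 3 counts, was 12.8-fold lower, and the fitted median log2 fold change of the 50 members past the filter was -4.30 against 0.02 for all genes. The calls in this contrast changed with the fit, and nothing is read from them about the members. The edgeR fit of all 8 libraries called 2 of these 50 lower (Snora73b and Gm26397) and 0 higher, with 0.0558% and 0.0% of all genes. With the filter of 20 input counts, edgeR called 0 of 83, with 0.0234% of all genes lower. DESeq2 called 29 of the 50 lower and 0 higher, with 4.0% and 2.55% of all genes. edgeR on the 4 libraries compared called 46 lower and 0 higher, with 8.46% and 8.44% of all genes. Without the RIP EV libraries, a setting chosen once the data had been seen, edgeR called 49 lower and 0 higher, with 7.98% and 7.32% of all genes.

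**Figure D4:**
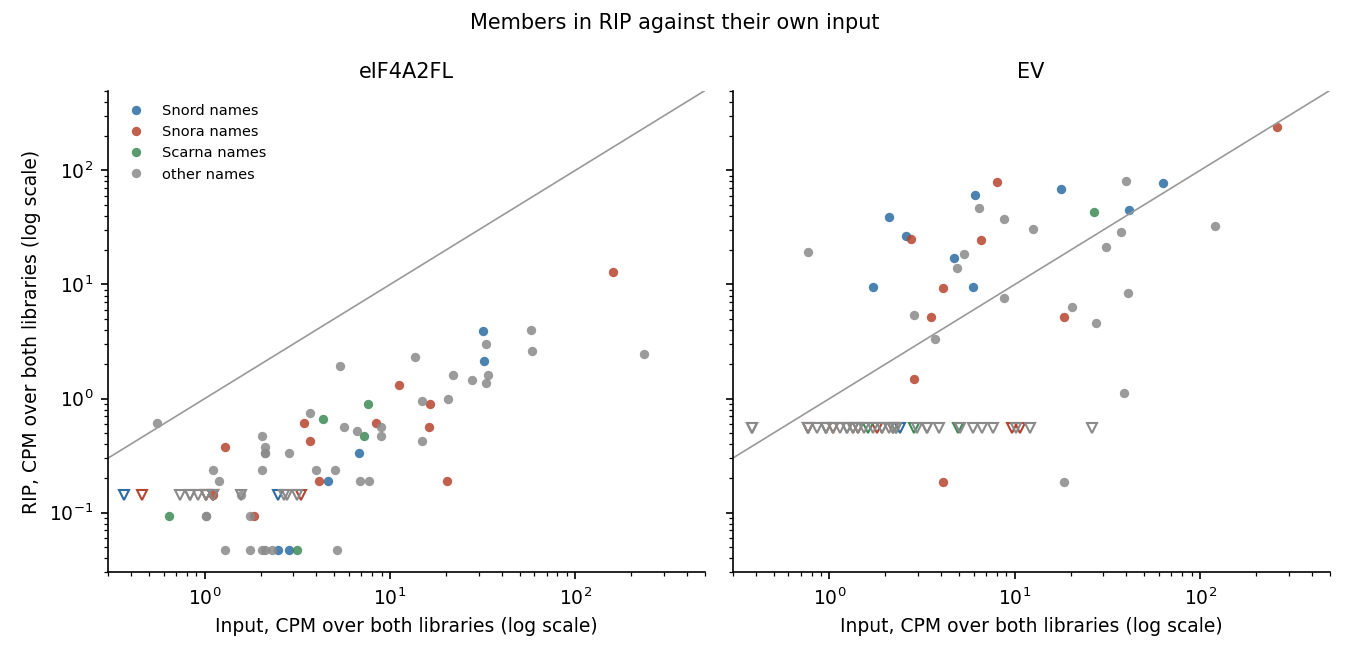
RIP level (vertical axis) against input level (horizontal axis) of each member, in CPM over both libraries on log scales, for eIF4A2FL and EV cells. Filled points are members with a read, open triangles are members with 0 RIP reads drawn at the floor of 3 counts, and the line marks equal levels; for eIF4A2FL 82 of 83 members were below it before the floor was set, and for EV they scatter on both sides.

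The size of the difference from input varied between members. Gm26397 went from 226 ± 77.3 CPM (SD, n = 2) in input eIF4A2FL to 2.40 ± 1.27 CPM (SD, n = 2) in the RIP, 95.4-fold lower over pooled reads. Snora30 was 107-fold lower and Snora73b 12.2-fold lower. The scaRNA gene model Gm22767, in an intron of Ppp1r8, was 14.4-fold lower, at 52.2 and 62.2 CPM in input eIF4A2FL and 5.09 and 2.81 CPM in the RIP. Snord104 was 8.22-fold lower and Scarna8 was 6.56-fold lower.

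RIP EV against its input gave a mixed picture. Over pooled reads, 60 members were lower and 23 higher. Among the 12831 genes with at least 20 input counts, 8132 were lower and 4688 higher. Both RIP EV libraries lay below both EV inputs for 49 members, against 48.1% of all genes with at least 20 input counts, and above both for 5, against 12.7%. Those 5 were Snord35a, Snora17, Gm22980, Gm26448 and Gm23639, at 2.03-fold (Gm23639) to 18.6-fold (Snord35a) above input. By name, 9 of 10 Snord members were higher in RIP EV over pooled reads, against 5 of 16 Snora members and 1 of 5 Scarna members; differences between the name classes were not tested. The edgeR fit called 18 of the 50 members past the filter lower and 2 higher (Snord35a and Snora17), with 26.3% and 4.5% of all genes. The EV inputs took part in choosing the members, so these calls are no test of them.

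Between the inputs, whose summed counts chose the members, edgeR called 0 of the 50 members in either direction, and 0 of the 10754 genes (0.0%), and DESeq2 called 0 members, against 0.121% of genes higher and 0.0279% lower. Scarna13 was at 7.79 and 7.39 CPM in input eIF4A2FL against 3.58 and 1.25 CPM in input EV, and was not called. Both eIF4A2FL inputs lay below both EV inputs for 21 members, against 17.1% of all genes, and above both for 11, against 19.9%. The Snord sum was uneven between the EV inputs, at 82.5 and 296 CPM.

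The difference between the cell lines in the RIP over input change uses all 4 inputs, which chose the members, and its calls are likewise given as a description. The edgeR fit called it for 7 of the 50 members, all with the lower RIP over input ratio in eIF4A2FL cells, against 2.1% of all genes, and for 0 in the other direction, against 19.2%. DESeq2 called 13 in the first direction and 1 in the other, against 5.65% and 24.5%. The 7 of edgeR were Snora73b, Gm26397, Snord35a, Snora17, Gm23639, Snord49b and Gm24289. Their fitted differences ran from -8.97 (Snord35a) to -3.75 (Snora73b) on the log2 scale. The count changed with the library left out, and without some libraries no member was called.

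The 71 members with a host gene could be set beside it. Changes in log2(CPM + 1), which understate the change of low genes, were taken for member and host. From input eIF4A2FL to RIP eIF4A2FL, 67 of 71 members changed to a lower value than their hosts, with a median change of -1.72 for members, -0.08 for hosts and a median difference of -2.19. The host mRNAs moved both ways, from -2.41 to 2.41. Gm23442 changed by -3.55 and its host Prrc2a by 2.41, the largest difference. Gm26397 changed by -6.07 and Tomm20 by -0.53, and Snora73b changed by -3.53 and Rcc1 by -0.27. The 4 members whose change was above that of their hosts were Snora31, Snord42a, Gm22270 and Gm26387, in Tpt1, Rpl23a and Rpl5. With a pseudocount of 0.1 the median difference was -3.63, and with 5 it was -0.96. Reads on no annotated feature also differed between groups. They made up 12.3% and 8.58% of all reads in input eIF4A2FL, and 3.30% and 4.13% in RIP eIF4A2FL. In input EV they made up 13.1% and 17.6%, and in RIP EV 45.8% and 29.7%. Their part in the change of intronic members against hosts was not tested.

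**Figure D5:**
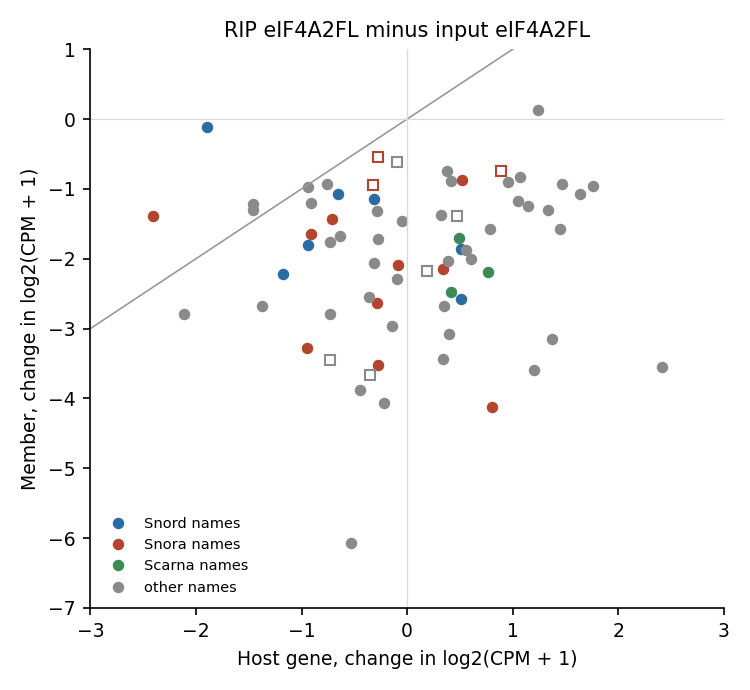
Change in log2(CPM + 1) from input eIF4A2FL to RIP eIF4A2FL for each member (vertical axis) and its host gene (horizontal axis), n = 71. Circles are intronic members, open squares overlap a host exon, and the line marks equal change; 67 of 71 points lie below it.

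Members that overlap host exons can take reads of the host mRNA or lose them as ambiguous. Gm24616, in Eif4a2, was at 31.2 and 51.8 CPM in the EV inputs and 23.4 and 41.3 CPM in the eIF4A2FL inputs. It had 0 and 46.0 CPM in the RIP EV libraries and 2.05 and 1.10 CPM in RIP eIF4A2FL. Its change from input to RIP with eIF4A2FL was -3.66 and that of Eif4a2 -0.35 in log2(CPM + 1). For Gm23547 and Gm24451 the changes were -3.44 and -2.17, against -0.73 for Phb2 and 0.19 for Nop56. With the 8 exon-overlapping members left out, the median difference from the host was -2.19.

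Hosts of members in RIP EV did not all follow their members. The noncoding host 2410006H16Rik of Snord49b and Snord65 was itself high in RIP EV, at 778 and 1103 CPM, against 314 and 252 CPM in RIP eIF4A2FL and 154 to 234 CPM in the inputs. Rpl13a, host of Snord35a, was at 220 and 255 CPM in RIP EV and 227 to 336 CPM in the inputs, while the snoRNA was 18.6-fold above input there. Rpsa, host of Gm26448, was at 7.82 and 47.5 CPM in RIP EV, below its inputs (111 to 173 CPM), while Gm26448 was above its own. Nop56 was at 1317 and 3310 CPM in RIP EV against 204 to 289 CPM in the inputs, while Gm24451 had 1 read.

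The mRNAs of snoRNA core and assembly proteins were read from a list of 28 genes, of which 27 were found, all past the filter. Between the RIPs, 6 were lower in RIP eIF4A2FL and 1 higher, beside 5.46% and 24.8% of all genes tested. The lower ones were Nop56 and Nop58, C/D box core proteins (log2 fold changes of -3.24 and -2.30), Dkc1, the H/ACA pseudouridine synthase (-1.05), Wrap53, which brings scaRNAs to Cajal bodies (-1.39), and the assembly factors Nufip1 (-1.43) and Znhit6 (-1.36). The higher one was the H/ACA protein gene Nop10 (1.32). Against input eIF4A2FL, 0 of the 27 were called, beside 0.0558% of all genes lower and 0.0% higher. Their median log2 fold change was -0.45. Fbl, the fibrillarin gene, was at 41.1 and 22.4 CPM in RIP EV against 39.4 and 48.5 CPM in RIP eIF4A2FL. The RIPs overlap, and all 4 RIP libraries were below its inputs (69.0 to 115 CPM).

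Other short noncoding classes with at least 20 input counts are few and are given for scale. The 5 misc_RNA genes (Terc, Rny3, Vaultrc5, Rny1 and Gm27956) summed to 29.6 and 28.6 CPM in input eIF4A2FL and 2.32 and 1.60 CPM in the RIP, 14.8-fold lower, and all 5 had both RIP libraries below both inputs. The 11 miRNA genes were 4.63-fold lower in sum, with 8 of 11 separated. Among them Snord43 carries a C/D box snoRNA name, so this class is not free of snoRNAs. Both ribozyme genes, Rmrp and Rpph1, were separated too, 17.2-fold lower in sum. The 5 snRNA genes were at 8.01 and 6.75 CPM in input eIF4A2FL and 5.62 and 6.41 CPM in the RIP, with 3 of 5 separated. The 11503 protein-coding genes had a median log2 fold change of 0.08, and 15.5% of them were separated downwards. Low values were not limited to short RNAs. Against input eIF4A2FL, the fitted change was below 0 for 6 of 6 nuclear long noncoding RNAs examined, with 0 called. Between the RIPs, edgeR called 4 of them lower (Malat1, Meg3, Rian and Mirg) and 1 higher (Kcnq1ot1), beside 5.46% and 24.8% of all genes. No test between the classes was made.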

How the data were processed

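Input and anti-Flag RIP libraries were made with a 3′ kit primed by oligo(dT) and, per the labels and the study's methods, aligned with STAR 2.5.3a to mm10. The deposited values are raw counts per gene that the authors made with HTSeq 0.11.2 for 8 libraries. For the strand setting and annotation release, the sources used here give nothing. The 5 HTSeq summary lines were left out of library sizes, in which 19.9% to 68.2% of reads fell on genes. Members were typed through GENCODE vM21, which matched 52403 of 52550 genes. The members and gene lists were chosen with earlier results of these data known.

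CPM is the count scaled to the library's gene reads. Fits used edgeR 4.0.16 in R 4.3.3: TMM normalisation, 1 mean per group, a filter of CPM 1 or more in every input, and quasi-likelihood tests, Benjamini-Hochberg adjusted, with a threshold of 0.05. The SE of a log2 fold change was its absolute value divided by the square root of the test's F statistic. The spread behind it was shared over the 8 libraries of the fit. The fit was also run on simulated counts whose means came from the inputs. These lack the sparse detection of RIP EV, so they do not show how the fit performs there. DESeq2 1.42.0 served as an alternative, beside other scalings, filters, a replicate block, fits on the libraries compared and leaving out each library. Counting intervals are exact 95% intervals and, like the floor of 3 counts, cover counting error only. No 2 libraries of a group agreed within counting noise (chi-square over degrees of freedom of 47.4 to 86.3 over genes past the filter), so none was treated as a library deposited again. Library preparation alone can exceed that noise, so this does not show separate cultures, and nothing says that the EV replicates are such.

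Named members were those with the most input counts per name class (8 Snord, 8 Snora, 4 Scarna and 4 others at most) and, per comparison, the 3 largest changes each way among called members whose groups do not overlap. Snora31, Snord42a, Gm24289, Gm22980, Gm22488, Gm24616, Gm22270, Gm26387 and Rnu3b1 were added after their values were seen. Sequences and box searches used GRCm38. A sequence and a host gene's result are not reported here.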

Additional observations from a re-analysis of the deposited data

Results flagged for a closer look

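The difference between the cell lines in the RIP over input change was past the threshold of the fit for 7 members, which is why they are set out here. It uses the inputs that chose the members, so the values are a description and no test of them. On the log2 scale, as eIF4A2FL minus EV in edgeR's quasi-likelihood fit, it was -8.97 for Snord35a, -8.22 for Snora17, -5.99 for Snord49b, -5.89 for Gm24289, -5.75 for Gm23639, -4.83 for Gm26397 and -3.75 for Snora73b. All 7 had a read in both RIP EV libraries, which 12 of the 83 members had. The sparse detection in RIP EV moves with these values, and its part in them was not tested.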

How the results depend on the processing

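The share of reads on members in RIP eIF4A2FL stayed below that in input eIF4A2FL and in RIP EV under each alternative run. Against input the ratio was 0.0533 to 0.0633 with 1 library left out and 0.0895 on all reads in the table. Against RIP EV it was 0.0501 to 0.0530 with 1 library left out, 0.141 on all reads, 0.0448 without the 10 most abundant genes in the total and 0.0465 over every annotated snoRNA and scaRNA gene. The RIP EV share over input EV ranged from 0.746 to 1.34, and the ratio of the inputs from 0.664 to 1.19, so neither kept a direction. The median difference between member and host was -3.63 with a pseudocount of 0.1, -0.96 with 5 and -2.03 with protein-coding hosts only.

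Counts of called members depended on the processing. Most are given here without the share of all genes called. They show that the calls vary, and nothing is read from them about the members. Between the RIPs, members called higher numbered 4 with library size alone, 1 with no filter, 0 on the 4 libraries compared and 0 to 4 with 1 library left out. Members called lower numbered 22 by DESeq2, 28 with no filter, 0 on the 4 libraries compared and 7 to 25 with 1 library left out, with 25 without RIP EV replicate 1, 7 without either RIP eIF4A2FL library. For RIP eIF4A2FL against input, members called lower numbered 0 with library size alone, with DESeq2 size factors or with the filter of 20 input counts, 8 with no filter, 29 by DESeq2, 46 on the 4 libraries compared and 0 to 49 with 1 library left out, with 49 without either RIP EV library. Leaving out both RIP EV libraries, a choice made after seeing the data, gave 49 lower, and 54 of 83 with the filter of 20 input counts. For RIP EV against input, members called higher numbered 0 on the 4 libraries compared and 0 to 8 with 1 library left out, and lower 0, 29 with no filter and 13 to 32. The difference between the cell lines gave 1 higher with library size alone or DESeq2, lower 13 by DESeq2 and 15 with no filter, and with 1 library left out 0 to 4 higher and 0 to 24 lower. Library size alone moved the median log2 fold change of all genes from 0.64 to 0.91 between the RIPs and from 0.02 to 0.32 against input. No value of a named member changed direction, and 126 values were no longer past the threshold; the cause was not tested.

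Same-numbered libraries did not deviate together (correlations of -0.0688 to 0.127 between groups), and the main fit used no pairing. This cannot exclude that same-numbered libraries share a clone, since libraries of a group differed by far more than counting noise. With the replicate block, 0 members were higher and 11 lower between the RIPs, and 0 were lower in RIP eIF4A2FL against input. In the difference between the cell lines, 6 were lower. These counts too are given without the share of all genes. With 2 libraries a group and 5 to 6 reads per detected member in RIP eIF4A2FL, differences among the least counted members were not detectable at this depth.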
